A study of Mus musculus with 6 samples.

Results

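The 77 genes described here are named for proteins of the mitochondrial ribosome, 48 of the large subunit and 29 of the small subunit. They are the rows of a table of 35975 genes with counts whose symbol begins with Mrpl or Mrps followed by a number. Mrps36 is among them by name only, as described below. The study sequenced messenger RNA of interscapular brown fat, the heat-producing depot between the shoulder blades, from mice of strain C57BL/6. The control group is labelled Ctrl. The other group, Olfm4CKO, is Ucp1-Cre; Olfm4 flox/flox, in which Cre under the promoter of the brown adipocyte gene Ucp1 recombines floxed alleles of Olfm4, the gene of the secreted glycoprotein olfactomedin 4. The sources used here do not give the genotype of Ctrl in full, so whether those mice carried the Cre or the floxed alleles is not known, and they give no age, no treatment and no statement that libraries came from separate mice. P-values therefore measure the spread between these libraries. Values per gene come from replicates 1 and 2 of each group, 4 libraries that are always given in the order Ctrl replicate 1, Ctrl replicate 2, Olfm4CKO replicate 1, Olfm4CKO replicate 2, since the replicate 3 columns do not follow the gene names beside them.

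Mitochondria have their own ribosome, which translates the few messenger RNAs of mitochondrial DNA, in mammals for subunits of the respiratory chain and ATP synthase. Its ribosomal RNA is made inside the organelle, whereas all of its proteins are encoded in the nucleus, made in the cytosol and imported. The large subunit joins amino acids and leads the new chain out towards the inner membrane, and the small subunit holds the messenger RNA and reads its codons. Brown adipocytes are packed with mitochondria, and their heat production by UCP1 depends on the respiratory chain.

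The 4 libraries held 15346705 to 17309325 counts. Brown adipocyte markers were abundant, with Ucp1 between 2943.9 and 10210.2 CPM (read counts relative to library size, scaled by edgeR's TMM factors, as all CPM values here), and no marker of that list was at 0. Olfm4 had 0 counts in each library, which allows up to 0.195 CPM by counting error alone, so it could not check the genotype labels, and the titles of the Olfm4CKO samples also carry a wild-type tag. The Y-linked Ddx3y had 1300 counts in Ctrl replicate 1 and 0 in the other 3 libraries, and Xist, expressed from the inactive X chromosome, had 0, 49.5, 215 and 207 CPM in the 4 libraries. The 2 Ctrl libraries thus differed in sex-linked transcripts and were not repeats of the same RNA, while the labels leave the relation of the 2 Olfm4CKO libraries unstated. Only Ctrl held a library with Y-linked transcripts, so a difference of sex and one of genotype cannot be fully told apart. Replicates of a group differed widely, with a biological coefficient of variation of 32.6%.

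All 77 genes were expressed in every library, at 261 to 5592 counts each. Compared per length, as CPM per kilobase of the principal GENCODE transcript and averaged over the 4 libraries, their levels ran from 7.14 to 295 with a median of 45.8. The highest was Mrpl34, one of the smallest proteins of the large subunit, at 286, 367, 322 and 205 CPM per kilobase in the 4 libraries. Mrpl42, a large subunit protein specific to mitochondria, followed at a mean of 257, then Mrps21 of the small subunit at 209, Mrpl30 at 208 and Mrpl12, the stalk protein that helps recruit translation factors, at 199 CPM per kilobase. Within libraries, Mrpl42 was above Mrps21 in all 4, whereas the order of the other neighbours (Mrpl34 and Mrpl42, Mrps21 and Mrpl30, Mrpl30 and Mrpl12) changed from library to library. In all, 15 genes exceeded 100 CPM per kilobase, 10 of them of the large subunit.

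At the other end, 5 genes lay under 10 CPM per kilobase, 4 of the large subunit and 1 of the small subunit. The lowest of the large subunit were Mrpl19 at 7.14, Mrpl47 at 7.81 and Mrpl1 at 9.02, and the lowest of the small subunit were Mrps25 at 7.55, Mrps26 at 11 and Mrps17 at 11.4 CPM per kilobase. These genes have long principal transcripts in the annotation (5000 bases for Mrpl19 and 6073 for Mrps25), so a shorter transcript in this tissue would raise their level per length. For Mrps26 and Mrps17, and for Mrpl32, which also lay under 10, the principal transcript is longer than the whole RefSeq gene. The levels of Mrps26, Mrps17 and Mrpl32 may therefore be understated, and their places among the lowest may rest on the length used. The median over the genes was 59.2 CPM per kilobase for the large and 41.9 for the small subunit.

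**Figure D1:**
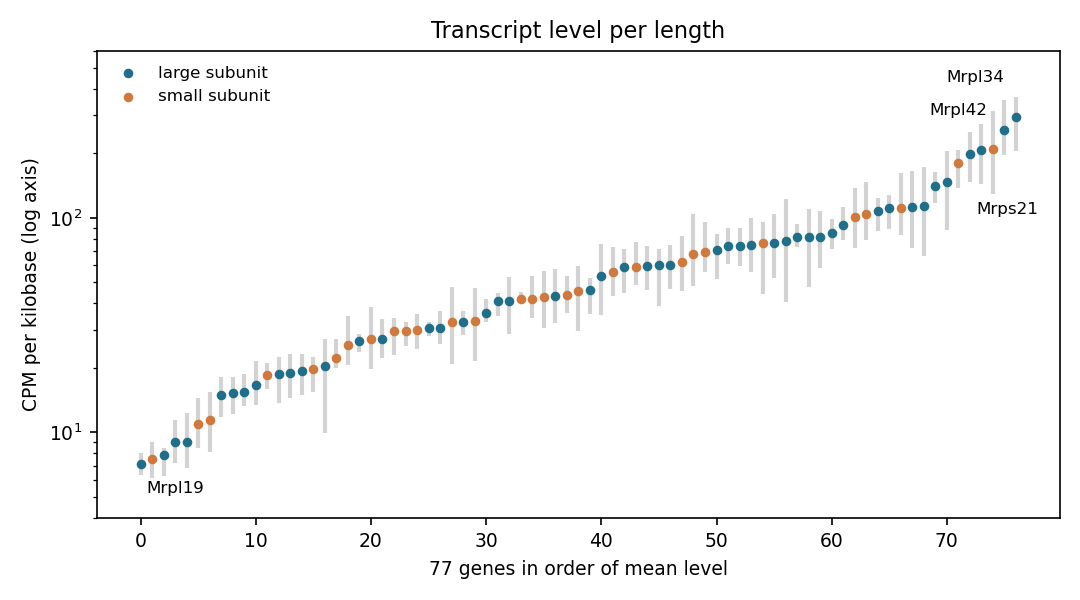
Mean level of each of the 77 genes in CPM per kilobase of transcript (log axis), in ascending order. Points are means over the 4 libraries, coloured by subunit, and grey bars run from the lowest to the highest library. Levels range from 7.14 (Mrpl19) to 295 (Mrpl34).

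Upstream sequences are shown for genes on which the account turns, so that the letters before their starts can be compared. Mrpl34 is the highest per length, Mrpl12 and Mrps21 are among the highest of each subunit, and Mrpl3, a core protein near the site of peptide bond formation, has the largest difference between the groups below. Each line gives the 150 bases before the annotated start on the strand of the gene (RefSeq, GRCm38.p6). Capitals mark motifs found by exact match on either strand: GCGCA, any base and GCGC for NRF1, CCGGAAG for ETS factors such as GABPA, AAGATGG for YY1, GGGCGG for SP1 and AAGGTCA for the ERR receptors. No marked motifs overlap in these lines. The windows are chr8:71464776-71464925 (plus strand) for Mrpl34, chr11:120484487-120484636 (plus strand) for Mrpl12, chr3:95871515-95871664 (minus strand) for Mrps21 and chr9:105053118-105053267 (plus strand) for Mrpl3.
Mrpl34: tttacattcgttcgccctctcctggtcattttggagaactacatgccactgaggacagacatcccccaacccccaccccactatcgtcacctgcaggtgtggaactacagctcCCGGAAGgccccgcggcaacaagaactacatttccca
Mrpl12: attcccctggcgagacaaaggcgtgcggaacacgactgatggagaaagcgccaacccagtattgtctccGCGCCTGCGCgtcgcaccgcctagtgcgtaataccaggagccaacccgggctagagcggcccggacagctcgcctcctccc
Mrps21: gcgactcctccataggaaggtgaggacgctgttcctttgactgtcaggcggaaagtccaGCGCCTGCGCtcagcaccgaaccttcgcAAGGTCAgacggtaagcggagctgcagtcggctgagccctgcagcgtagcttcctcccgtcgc
Mrpl3: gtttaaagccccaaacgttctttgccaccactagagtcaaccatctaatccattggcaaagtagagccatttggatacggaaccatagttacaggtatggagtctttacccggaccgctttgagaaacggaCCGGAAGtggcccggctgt

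The ETS letters stood 37 bases before the start of Mrpl34 and 19 before that of Mrpl3, and the NRF1 letters 81 bases before Mrpl12 and 91 before Mrps21. NRF1 and the ETS factor GABP (also called NRF2) are known for activating nuclear genes of mitochondrial proteins. Across windows of 300 bases, 250 before and 50 after the start, 68 of the 77 genes had a RefSeq entry. ETS letters were in 25 of these (36.8%), against 19.3% of the expressed genes with an entry and 9.93% of all 27025 genes with one. A gene counted as matching if any of its windows matched. NRF1 letters were in 13 (19.1%), against 11.1% and 5.19%, and YY1 letters in 13 (19.1%), against 8.10% and 7.28%. The SP1 letters were in 34 (50%), against 67.6% of expressed genes and 38.2% of all genes with an entry. The ERR letters were in 4 (5.88%), against 4.12% and 5.38%. By subunit, NRF1 letters were in 10 of 42 large and 3 of 26 small subunit genes, and ETS letters in 14 and 11. A match describes the letters of a window and does not show that a factor binds there.

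The genes lie on 17 chromosomes. Of the 68 with a RefSeq entry, 26 start within 1000 bases of a gene transcribed in the opposite direction, a share not counted over all genes. One such pair joins the subunits: Mrps11 and Mrpl46 on chromosome 7, with 41 bases between their starts (chr7:78783090-78783130, GRCm38.p6), shown because 2 members share the whole interval. In the line, on the plus strand, capitals mark SP1 letters.
Mrps11 and Mrpl46: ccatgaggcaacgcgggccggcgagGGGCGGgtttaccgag

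Mrps11, of the small subunit, measured 25.2 and 41.3 CPM in Ctrl and 49.7 and 22.7 CPM in Olfm4CKO. Mrpl46, of the large subunit, measured 35.0 and 58.2 CPM in Ctrl and 60.3 and 32.6 CPM in Olfm4CKO. Both stood high in Ctrl replicate 2 and Olfm4CKO replicate 1 and low in the other 2 libraries, and the groups overlapped. In GENCODE vM21, whose transcripts extend beyond the RefSeq starts used for the interval, exons of the 2 genes overlap, so without a known strand setting reads of one may have been counted for the other. This pair was chosen for its position, outside the rule for named genes.

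Transcripts of both subunits, summed, differed more between the replicates of a group than between the groups. The 77 genes together took 5230.2 and 6881.9 CPM in Ctrl and 7121.3 and 4620.8 CPM in Olfm4CKO. Olfm4CKO held both the highest and the lowest library, 1.54-fold apart, and both Ctrl libraries lay between them. As means with SD (n = 2 each) the sums were 6056.1 ± 1167.9 CPM in Ctrl and 5871.1 ± 1768.1 CPM in Olfm4CKO. In bulk tissue, fewer cells of a type and less RNA per cell cannot be told apart.

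The large subunit summed to 3481.6, 4582.2, 4705.3 and 3061.4 CPM over the 4 libraries. The small subunit summed to 1748.7, 2299.8, 2416.0 and 1559.4 CPM in the same order. Group means were 4031.9 ± 778.0 (Ctrl) and 3883.4 ± 1162.4 CPM (Olfm4CKO) for the large and 2024.2 ± 390.0 and 1987.7 ± 606.0 CPM for the small subunit (SD, n = 2). The libraries stood in the same order for both subunits. On the scale of CPM per kilobase, the ratio of the summed large to the summed small subunit was 2.11 and 2.1 in Ctrl and 2.09 and 2.09 in Olfm4CKO. Per protein this came to means of 61.2, 81.7, 86.2 and 52.5 CPM per kilobase for the large and 48.0, 64.4, 68.1 and 41.5 for the small subunit.

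**Figure D2:**
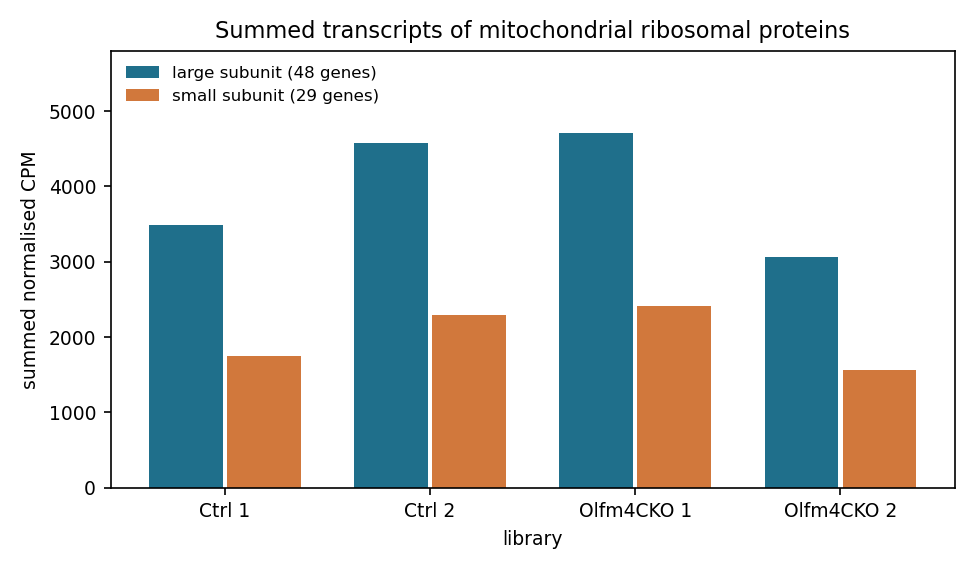
Summed normalised CPM of the 48 large and 29 small subunit genes in each of the 4 libraries (bars from 0, 1 library each). Both subunits are higher in Ctrl replicate 2 and Olfm4CKO replicate 1 than in Ctrl replicate 1 and Olfm4CKO replicate 2, and the large subunit takes 1.95 to 1.99 times the CPM of the small subunit in each library.

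A few names need care in that division. In the structure of the mammalian ribosome, the products of Mrps30 and Mrps18a sit in the large subunit, and Mrps36 is a subunit of 2-oxoglutarate dehydrogenase. With 50 large and 26 small subunit genes placed by structure, the ratio per kilobase was 2.70 and 2.63 in Ctrl and 2.55 and 2.58 in Olfm4CKO. Mrps36 is the most abundant of the 3, at a mean of 180 CPM per kilobase against 76.1 for Mrps18a and 22.3 for Mrps30. It measured 119 and 146 CPM in Ctrl and 143 and 96.5 CPM in Olfm4CKO. Ict1, whose product is the large subunit protein also named MRPL58, is listed under its older symbol and is no member by the rule. It measured 46.5, 72.3, 87.4 and 44.0 CPM in the order above, the same order of libraries as the summed genes.

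Gene by gene the pattern over libraries was shared. Of the 77 genes, 45 were highest in Olfm4CKO replicate 1 (28.0% of all genes tested were), 30 in Ctrl replicate 2 (26.2%), 2 in Ctrl replicate 1 (23.3%) and 0 in Olfm4CKO replicate 2 (22.5%). The lowest library was Olfm4CKO replicate 2 for 62 genes (26.5% of all genes tested), Ctrl replicate 1 for 12 (19.3%), Olfm4CKO replicate 1 for 2 (27.0%) and Ctrl replicate 2 for 1 (27.1%). Measured as log2 CPM minus the mean of each gene over the libraries, the median deviation was -0.20, 0.22, 0.27 and -0.34. For the large subunit it was -0.19, 0.22, 0.28 and -0.34, and for the small subunit -0.20, 0.18, 0.25 and -0.34. The 2 replicates of a group thus lay on opposite sides of the mean in both groups.

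**Figure D3:**
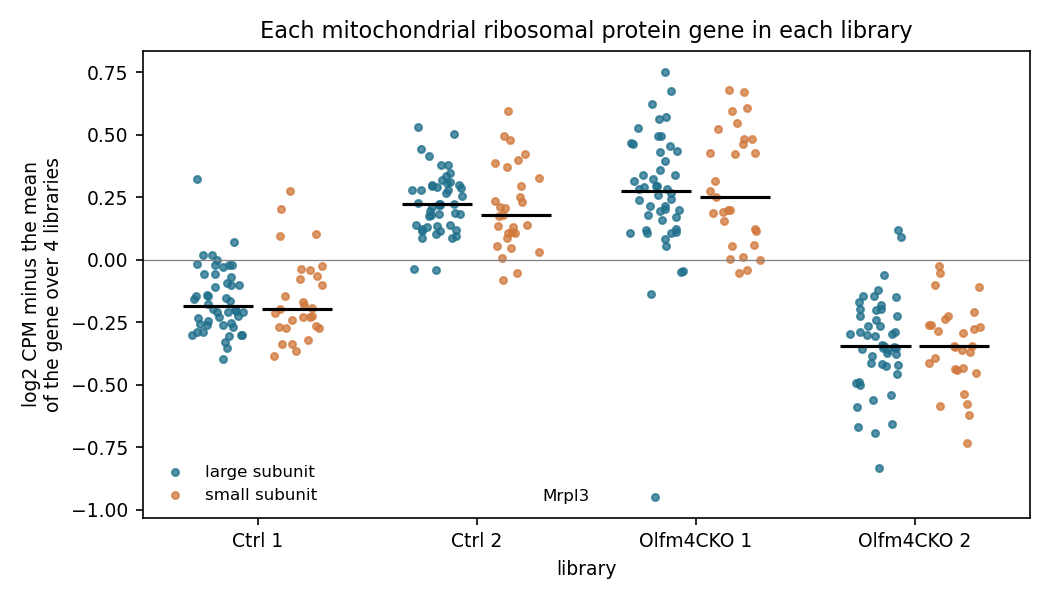
Deviation of each gene in each library, as log2 CPM minus the mean of that gene over the 4 libraries (each point 1 gene, black lines medians by subunit). Medians of both subunits are below 0 in Ctrl replicate 1 and Olfm4CKO replicate 2 and above 0 in the other 2 libraries, and Mrpl3 lies far below the rest in Olfm4CKO replicate 1.

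Transcript length moved with this pattern. The genes are short, with a median principal transcript of 1288 bases (418 to 7300) against 2973 over all genes tested with a length. Among all 867 tested genes under 1000 bases, the median deviations were -0.18, 0.22, 0.34 and -0.39. The 25 mitochondrial ribosomal protein genes of that length had -0.21, 0.22, 0.43 and -0.43, nearly the values of other short genes. Among genes of 4000 bases and over, the order differed: all 4067 tested genes had medians of 0.15, -0.25, -0.09 and 0.21, whereas the 9 mitochondrial ribosomal protein genes had -0.18, 0.14, 0.20 and -0.28. Those of 2000 to 4000 bases had -0.10, 0.18, 0.27 and -0.29, against 0.03, 0.03, -0.02 and -0.00 over all genes. For some members the principal GENCODE transcript is longer than the whole RefSeq gene. Examples are Mrps26 and Mrps17 in the longest class, and Mrpl51 and Mrpl32 among those of 2000 to 4000 bases. Such members may be classed as longer than their transcripts in this tissue. The part of length in the pattern was not tested beyond these values.

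**Figure D4:**
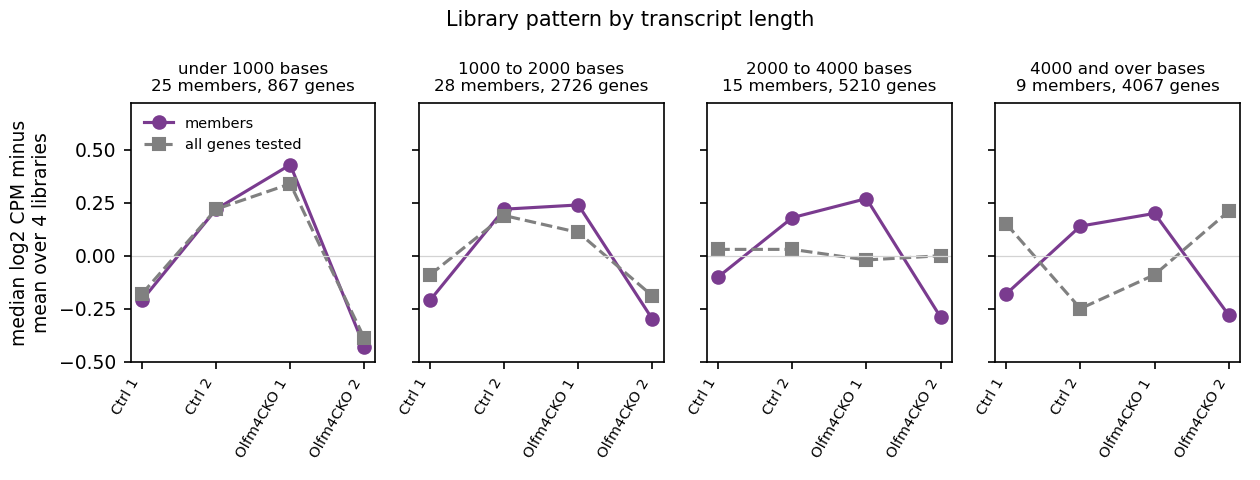
Median deviation from the mean over libraries (log2 CPM) in each library, for the mitochondrial ribosomal protein genes (circles) and all genes tested (squares), in 4 classes of transcript length. The 2 lines run together under 1000 bases and apart at 4000 bases and over, where the 9 members keep the order seen in short transcripts. Classes follow the principal GENCODE transcript, which for some members is longer than the whole RefSeq gene.

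Other gene lists of related function were set beside the genes by their summed CPM. Relative to the nuclear subunits of the respiratory chain and ATP synthase, the genes had a ratio of 0.0972, 0.0945, 0.103 and 0.102, a range of 1.09-fold. Relative to the cytosolic ribosomal proteins the ratio was 0.288, 0.295, 0.249 and 0.283, a range of 1.18-fold. The ratio to the 13 protein-coding transcripts of mitochondrial DNA spanned 1.78-fold, at 0.0275, 0.0490, 0.0370 and 0.0280. Those transcripts, which this ribosome translates, were lowest in Ctrl replicate 2 with 140388.3 CPM, against 164924.6 to 192427.3 CPM in the other libraries. The ratio to the genes for assembly and ribosomal RNA modification was 8.5, 9.42, 11.4 and 8.39 (1.36-fold), and that to the mitochondrial translation factors 4.07, 4.8, 5.91 and 3.8 (1.55-fold). Brown adipocyte markers summed to 19488.1, 24495.2, 20114.5 and 12222.2 CPM, a sum to which Ucp1 contributed much, and the ratio to it spanned 1.41-fold. Of these 15 markers 7 were lowest in Olfm4CKO replicate 2, and the list's median level was 204, 176, 147 and 173 CPM per kilobase, lowest in Olfm4CKO replicate 1. Markers of other cells also differed between libraries, with none of 10 endothelial markers at 0 (1079.0 to 1271.8 CPM in Ctrl, 1611.5 to 1882.8 in Olfm4CKO), none of 10 macrophage markers at 0 (188 to 459 and 198 to 265 CPM), and 1 of 12 skeletal muscle markers at 0 in Ctrl replicate 2 (59.3 to 121 and 50.4 to 286 CPM). Their part in the values of the 77 genes was not tested.

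No gene of the mitochondrial ribosome passed the threshold between Olfm4CKO and Ctrl. With edgeR's quasi-likelihood test, 0 of the 77 genes had a Benjamini-Hochberg adjusted p below 0.05, as for all 13573 genes tested (0.0% called, smallest adjusted p 0.9998). Without adjustment, 0 of the 77 genes and 2.11% of all genes tested had a p below 0.05. DESeq2 (0.00737% of all genes called), limma-voom (0.0%) and edgeR with the replicate number as a block (0.0295%) each called 0 of 77. So did the fits that leave out Ctrl replicate 1 (0.175%), Ctrl replicate 2 (0.19%), Olfm4CKO replicate 1 (0.19%) or Olfm4CKO replicate 2 (0.042%). The median log2 fold change (Olfm4CKO over Ctrl) was -0.01 over the 77 genes, -0.02 over the large and 0.02 over the small subunit, against -0.01 over all genes tested. Below 0 lay 42 of the 77 values, where 51.4% of all genes tested did. The difference between the subunit medians was -0.04, and it was not tested.

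The precision of these values was limited by the spread between libraries. The 95% interval of a fold change reached a median of 0.81 to either side on the log2 scale, and for 51 of the 77 genes it lay wholly within 1 log2 unit of 0, so that a doubling or halving was outside it. For the other 26 genes a change of that size was within the interval. Leaving out single libraries moved the median of the 77 values to -0.20 without Ctrl replicate 1, 0.19 without Ctrl replicate 2, -0.36 without Olfm4CKO replicate 1 and 0.21 without Olfm4CKO replicate 2. The sign of 66 of the 77 values turned in at least 1 of these fits.

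**Figure D5:**
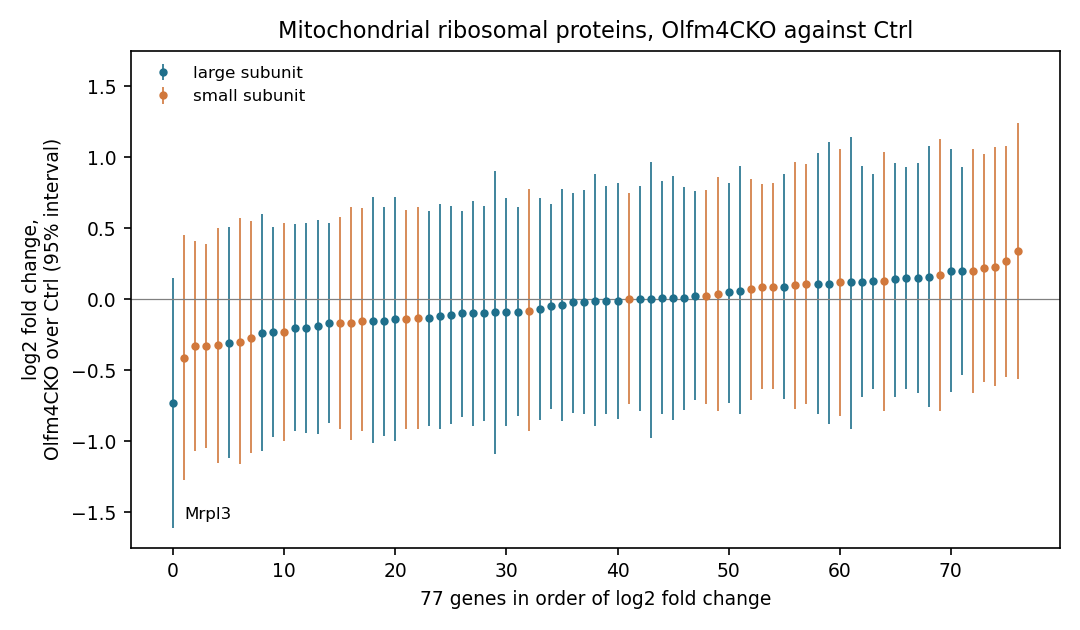
Log2 fold change of Olfm4CKO over Ctrl for each of the 77 genes in ascending order, with 95% intervals from edgeR's quasi-likelihood fit (n = 2 libraries per group). All intervals include 0, and Mrpl3 at -0.73 stands apart at the lower end.

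Groups did not overlap for 8 of the 77 genes, against 24.6% of all genes tested. The 2 libraries of Olfm4CKO were both above those of Ctrl for Mrps2 and Mrpl47 (background 11.8%). They were both below for Mrpl3, Mrpl9, Mrpl39, Mrpl44, Mrps18b and Mrps31 (background 12.8%).

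Mrpl3 had the smallest p of the 77 genes. It measured 95.2 and 108 CPM in Ctrl and 39.5 and 82.7 CPM in Olfm4CKO. Olfm4CKO replicate 1 was less than 0.5 times the lowest of the other libraries, which held for no other of the 77 genes in any library, and for 298 of the 13573 genes tested (2.20%) in that library. The log2 fold change was -0.73 ± 0.40 (SE; unadjusted p = 0.0937, edgeR adjusted p = 0.9998), and ranged from -1.37 when Olfm4CKO replicate 2 was left out to -0.28 when replicate 1 of that group was. While most of the genes were highest in Olfm4CKO replicate 1, Mrpl3 was lowest there. Its exons in GENCODE vM21 overlap those of the predicted genes Gm38077 and Gm47106.

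Among the other large subunit genes with the smallest p, Mrpl34 measured 173 and 223 CPM in Ctrl and 196 and 125 CPM in Olfm4CKO, with a log2 fold change of -0.31 ± 0.37. Its groups overlapped, as did those of Mrpl16 (-0.24 ± 0.38) and Mrpl53 (-0.23 ± 0.34). Mrpl39 measured 81.0 and 95.6 CPM in Ctrl and 74.7 and 78.9 CPM in Olfm4CKO (-0.20 ± 0.33), groups that lay apart by less than the gap between the Ctrl libraries. Mrpl44, which has the fold of an RNase III enzyme, varied little, at 45.8 and 46.5 CPM in Ctrl and 42.2 and 40.0 CPM in Olfm4CKO (-0.17 ± 0.32). Mrpl47 stood at 21.1 and 27.7 CPM in Ctrl and 28.4 and 27.8 CPM in Olfm4CKO (0.20 ± 0.33), where only Ctrl replicate 1 was distinctly lower. Mrpl9, added to these after its values were seen, stood at 129 and 151 CPM in Ctrl and 126 and 118 CPM in Olfm4CKO (-0.20 ± 0.33).

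The stalk of the large subunit, where elongation factors dock, is represented by Mrpl12 with Mrpl10 and Mrpl11 at its base. Mrpl12 measured 218 and 332 CPM in Ctrl and 306 and 192 CPM in Olfm4CKO, one Olfm4CKO library below both of Ctrl and the other between them (-0.14 ± 0.39). Mrpl10 measured 110 and 143 CPM in Ctrl and 139 and 88.4 CPM in Olfm4CKO (-0.15 ± 0.37). Mrpl11 measured 52.1 and 65.2 CPM in Ctrl and 68.4 and 41.7 CPM in Olfm4CKO (-0.09 ± 0.36). All 3 were lowest in Olfm4CKO replicate 2, and in each the groups overlapped.

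The widest spread over libraries belonged to Mrpl23, which lines the exit of the polypeptide tunnel. It measured 46.6 and 57.2 CPM in Ctrl and 84.5 and 28.2 CPM in Olfm4CKO, 3-fold between its highest and lowest library and both extremes in Olfm4CKO. Mrpl3 followed with 2.74-fold and Mrpl20 with 2.58-fold, the latter at 67.2, 101, 131 and 50.8 CPM. The median over the 77 genes was 1.61-fold, and 12 genes exceeded 2-fold. Mrps2 had the narrowest spread at 1.12-fold, with 84.6 and 84.0 CPM in Ctrl and 94.3 and 85.5 CPM in Olfm4CKO (log2 fold change 0.09 ± 0.33).

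Among genes of the small subunit by name, the lowest p belonged to Mrps18a, whose product sits in the large subunit, at 69.0 and 84.5 CPM in Ctrl and 76.8 and 38.9 CPM in Olfm4CKO (log2 fold change -0.41 ± 0.39, unadjusted p = 0.317). Only Olfm4CKO replicate 2 was low, and the value was -0.01 without it. Mrps18a, Mrps18b and Mrps18c are paralogues that occupy different places in the ribosome, Mrps18c at the site of the bacterial protein S18. Mrps18b measured 24.3 and 23.2 CPM in Ctrl and 21.1 and 16.6 CPM in Olfm4CKO (-0.33 ± 0.33), with the groups apart, and Mrps18c 27.9 and 32.1 CPM in Ctrl and 38 and 19 CPM in Olfm4CKO (-0.08 ± 0.39), with the groups overlapping. Per length, Mrps18a made up 49.4% to 57.1% of the 3 paralogues' summed level over the libraries, Mrps18c 30.0% to 35.8% and Mrps18b 11.8% to 17.3%.

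Mrps31, a small subunit protein specific to mitochondria and the one with the lowest p when subunits are placed by structure (unadjusted p = 0.337), measured 54.3 and 46.7 CPM in Ctrl and 43.3 and 37.1 CPM in Olfm4CKO. The groups lay apart, with a log2 fold change of -0.33 ± 0.33. Mrps34, also specific to mitochondria, measured 79.8 and 125 CPM in Ctrl and 97.7 and 66.2 CPM in Olfm4CKO (-0.32 ± 0.37), and its groups overlapped. In the other direction, Mrps28 measured 40.3 and 54.0 CPM in Ctrl and 81.4 and 37.7 CPM in Olfm4CKO (0.34 ± 0.41), the highest fold change of the 77 and one carried by Olfm4CKO replicate 1, since it was -0.30 without that library. Mrps21 was similar in shape, at 80.5 and 112 CPM in Ctrl and 154 and 62.8 CPM in Olfm4CKO (0.17 ± 0.44).

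Mrps12, known for its part in accurate decoding, measured 45.0 and 67.9 CPM in Ctrl and 53.4 and 42.9 CPM in Olfm4CKO (-0.23 ± 0.35). Mrps5 had a log2 fold change of 0.00 ± 0.34, Mrps7 of 0.10 ± 0.40 and Mrps16 of -0.14 ± 0.35. Mrps22, specific to mitochondria, had 0.09 ± 0.33, and the groups overlapped for all 5 genes. Mrps24 had -0.30 ± 0.39 and Mrps15 0.23 ± 0.38, the latter highest in Olfm4CKO replicate 1 at 137 CPM.

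Genes that build, modify or use the mitochondrial ribosome were counted in the same way, and none of them passed edgeR's threshold. Of 25 genes for assembly and ribosomal RNA modification, 21 had a log2 fold change below 0 (51.4% of all genes tested), with a median of -0.18. Leaving out single libraries gave medians from -0.33 to -0.06. The Olfm4CKO libraries were both below Ctrl for 9 of the genes (background 12.8%) and both above for 1 (background 11.8%). Rbfa, an assembly factor of the small subunit, measured 34.0 and 38.4 CPM in Ctrl and 20.3 and 25.2 CPM in Olfm4CKO (-0.67 ± 0.33, unadjusted p = 0.0675). Mrm1, a ribosomal RNA methyltransferase, measured 13.3 and 19.1 CPM in Ctrl and 11.7 and 7.25 CPM in Olfm4CKO (-0.77 ± 0.40). Mettl15, another ribosomal RNA methyltransferase, measured 7.76 and 5.51 CPM in Ctrl and 3.49 and 4.2 CPM in Olfm4CKO (-0.79 ± 0.47). All 3 lay lower in both Olfm4CKO libraries, none with an adjusted p below 0.9998.

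Of 18 tested mitochondrial translation factors 14 were below 0, with a median of -0.16, and 4 had both Olfm4CKO libraries below Ctrl (background 12.8%), among them the initiation factor Mtif3 (-0.40 ± 0.34) and the release factor Mtrf1 (-0.47 ± 0.40). Qrsl1, a subunit of the amidotransferase that charges glutamine tRNA, was the 1 factor with both Olfm4CKO libraries above Ctrl (background 11.8%), at 15.9 and 15.9 CPM in Ctrl and 20.3 and 21.6 CPM in Olfm4CKO (0.40 ± 0.33). Of 17 mitochondrial aminoacyl-tRNA synthetases 13 were below 0 (median -0.19), with Pars2 for proline at -0.74 ± 0.42 and Yars2 for tyrosine at -0.37 ± 0.33. All 4 genes of mitochondrial transcription were below 0 (median -0.28), with the elongation factor Tefm at -0.49 ± 0.36, Tfam, which packs mitochondrial DNA and starts its transcription, at -0.37 ± 0.33, and Tfb2m at -0.19 ± 0.33. The 5 ribosomal proteins under other names had a median of -0.08, with Ptcd3 at -0.20 ± 0.35, Chchd1 at -0.16 ± 0.38 and Gadd45gip1 at 0.10 ± 0.41.

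Of 11 regulators of mitochondrial biogenesis, 8 were above 0, with a median of 0.24 and a range of -0.82 to 1.08. Leaving out single libraries gave medians from 0.02 to 0.34. The Olfm4CKO libraries were both above Ctrl for 3 of the genes (background 11.8%) and both below for 1 (background 12.8%). Pprc1, a coactivator related to PGC-1α that acts with NRF1, measured 7.58 and 9.55 CPM in Ctrl and 21.9 and 14.4 CPM in Olfm4CKO, both above Ctrl, with a log2 fold change of 1.08 ± 0.39 (unadjusted p = 0.0172, edgeR adjusted p = 0.9998). Ppargc1b, a coactivator of the same family, measured 166 and 79.0 CPM in Ctrl and 144 and 217 CPM in Olfm4CKO, and its groups overlapped (0.56 ± 0.42). Gabpb1, a subunit of the ETS factor GABP, measured 8.20 and 9.60 CPM in Ctrl and 13 and 11.3 CPM in Olfm4CKO (0.44 ± 0.38). Pprc1, Ppargc1b and Gabpb1 did not pass the threshold.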

How the data were processed

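The submitters' processing notes name cutadapt 1.11, the aligner HISAT2 2.1.0, the counter featureCounts 1.6.0 and the build mm10. Annotation and strand setting: not given in the sources used here. The values the authors deposited are raw read counts per gene: all are whole numbers and library totals differ, although the table is named for FPKM. Of 35978 rows, 35975 hold counts. The replicate 3 columns (12108535 and 12470249 counts) are filled for 24276 rows, correlate with the other libraries at rank correlations of -0.0209 to -0.0156 and were left out.

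The 2 Ctrl and 2 Olfm4CKO libraries were compared in edgeR 4.0.16 under R 4.3.3, with filterByExpr (minimum count 10, minimum total 15), TMM scaling, the quasi-likelihood test on group and Benjamini-Hochberg adjustment over all 13573 genes at a threshold of 0.05. Standard errors and 95% intervals come from that fit. All 77 genes passed the filter. The fit was also run on simulated counts, and the outcome is not reported here. Lengths are of the principal transcript in GENCODE vM21, positions and promoters from RefSeq (GRCm38.p6). For 32 of the 77 genes exons in GENCODE vM21 overlap another gene. Members and lists were chosen with earlier results of these data known. Named are a fixed list of well-known members, the 4 highest and 3 lowest per length and the 5 smallest p of each subunit, the 3 widest spreads, and up to 3 smallest p of each related list; exceptions are stated, and 1 gene that the rule gave is not reported here. Alternatives were no filter, DESeq2 size factors, library totals, nuclear genes only, DESeq2 1.42.0, limma-voom (limma 3.58.1), the replicate number as a block, each library left out, subunits by structure, and the length used.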

Additional observations from a re-analysis of the deposited data

How the results depend on the processing

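None of the 77 genes was called under any alternative (no filter, DESeq2 size factors, library totals, nuclear genes only, DESeq2, limma-voom, replicate block and each library left out), and the settings that kept all libraries gave a median over the 77 genes of -0.05 to 0.02. Over all genes tested, DESeq2 called 1, the replicate block 4, and leaving out single libraries 6 to 27, fits in which a lone library takes its spread from the other group; the cause was not tested. With single libraries left out, the small subunit median ranged from -0.38 to 0.23 and the difference between large and small subunit medians from -0.06 to 0.03, which moved it by more than its spread of 0.02; by structure the difference was -0.08. The ratio of large to small subunit transcripts, 2.1 per kilobase, was 1.97 on CPM without length, 2.62 by structure and 2.13 with exon union length, the last 2 chosen after seeing the data. Of 36 named members 26 changed sign in at least 1 fit without a library, none of them past the threshold. Same-numbered replicates deviated with a correlation of 0.00269 over genes. With 2 libraries a group there is a single difference per group to compare, so this cannot decide whether the numbers pair the samples. The replicate block changed no call of a member. With 2 libraries a group, small differences were not detectable, and large ones were not called either. Over all genes tested, log2 fold changes in the main edgeR fit ran from -4.13 to 4.35, with 0 genes called.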

Other observations

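Genes on either side of Mrpl3 on chromosome 9 did not share a single pattern. Mrpl3 starts at 105053268, and the genes looked up lie between 104063724 (Acad11) and 105521257 (Atp2c1). Acad11, an acyl-CoA dehydrogenase gene, had 271 and 269 CPM in Ctrl replicates 1 and 2 and 128 and 287 CPM in Olfm4CKO replicates 1 and 2, and was lowest in the same library as Mrpl3. Nudt16 was also lowest there, at 6.95, 6.94, 4.07 and 6.42 CPM in the same order. Aste1, at 9.27, 10.7, 11.8 and 7.50 CPM, was highest in that library. Atp2c1 was lowest in Olfm4CKO replicate 1, at 38.6, 29.4, 26.4 and 38.7 CPM. Dnajc13 was lowest in Ctrl replicate 2, at 52.0, 28.5, 31.8 and 50.1 CPM, as was Ackr4, at 0.689, 0.119, 0.646 and 0.763 CPM. Neighbours were looked up after the value of Mrpl3 was seen.

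Mrps18b starts 755 bases from Ppp1r10, which is transcribed in the opposite direction. Ppp1r10 measured 39.3 and 55.3 CPM in Ctrl and 67.0 and 137 CPM in Olfm4CKO, highest where Mrps18b was lowest. Lars2, the mitochondrial leucyl-tRNA synthetase, spanned 5.88-fold over libraries, at 987 and 206 CPM in Ctrl and 1212.8 and 265 CPM in Olfm4CKO. Lars2 is also outside that rule.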
